A study of Oreochromis niloticus with 6 samples.

Results

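The genes described here encode enzymes of the pentose phosphate pathway, a source of NADPH, and NADP-dependent malic enzymes. They were studied in the liver of male Nile tilapia (Oreochromis niloticus), a fish farmed in fresh water. They were chosen by product description, as GDH/6PGL endoplasmic bifunctional protein, 6-phosphogluconate dehydrogenase, 6-phosphogluconolactonase, transketolase, transaldolase or NADP-dependent malic enzyme. These descriptions named 9 of 29528 genes, of which 3 belong to the oxidative branch, 4 to the non-oxidative branch and 2 are malic enzymes. Liver RNA was sequenced in 3 libraries from fish in which antisense RNA had been used against elovl6, a fatty acid elongase gene, and in 3 libraries from wild-type fish of the negative control. Every fish was male and ate pellets with 5% palm oil. RNA of 18 fish, 9 in each group, was pooled over tanks, and whether the libraries of a group held different fish was not stated, so p-values measure the spread between libraries, which may be technical. For the sequence of the antisense RNA, its carrier and the age of the fish, nothing was stated.

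The oxidative branch turns glucose 6-phosphate into ribulose 5-phosphate and reduces NADP to NADPH on the way. The non-oxidative branch carries sugar phosphates between that pool and glycolysis, in either direction. Malic enzyme makes NADPH by oxidising malate to pyruvate. In liver this NADPH is spent on fatty acid and sterol synthesis and on keeping glutathione reduced.

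Libraries held 14341242 to 17245179 counted reads. The targeted gene elovl6 was at 36.6 to 39.3 FPKM, the authors' count per length and library total, after the knockdown, against 160.4 to 163 in the controls. In all, 11431 genes were tested by edgeR's quasi-likelihood test, of which 78.2% passed a Benjamini-Hochberg adjusted p under 0.05, with 39.1% higher and 39.1% lower in the knockdown. Hepatocyte markers were abundant in both groups, with a summed level of 123379 to 123831 FPKM in the knockdown, against 138282 to 141588 FPKM in the control libraries, and 10 of its 21 tested genes were higher and 10 lower. Markers of other cells were not even between the groups. Of the exocrine pancreas list 27 of 32 tested genes were lower and 5 higher, and its sum was 4406 to 4557 FPKM against 49211 to 49922 in the controls. Most of that knockdown sum was LOC100691326, which only its product name put in the list, and without it the sums were 1200 to 1355 and 48888 to 49607 FPKM. Of the erythrocyte list 11 of 12 tested genes were lower and 1 higher, with 2608 to 2831 FPKM against 17167 to 17767. No read fell in 12 of the 54 listed pancreas genes, among them copies of trypsin and chymotrypsinogen B, or in 13 of the 35 listed erythrocyte genes, all of them hemoglobin copies. In the list of macrophage and neutrophil genes all 12 tested were higher, with a sum of 179 to 186 FPKM against 43.7 to 44.5, and 28 of its 58 genes had no read. Of 14 tested endothelial and stellate cell genes 10 were higher and 2 lower, and of 4 adipocyte genes 2 were higher and 1 lower. All 5 tested biliary genes and the 1 tested gene of the skeletal muscle list, myoglobin, were higher. The lymphocyte list had only 2 tested of 62 genes, both higher, and 18 had no read. Most of its knockdown sum was the uncharacterised LOC100709685, at 21.98 against 5.45 FPKM. The B-cell genes cd79a (0.538 against 1.26 FPKM) and cd79b (0.531 against 0.82) were below the filter, with lower means in the knockdown.

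Of the pentose phosphate genes described, 4 of the 6 tested were lower in the knockdown livers, and both malic enzyme transcripts were higher. Of the 9 genes, 8 passed the filter of a mean of at least 1 FPKM over the 6 libraries. Among these 4 were lower, 2 were higher and 2 did not pass the test. In the background 78.2% of all genes tested were called, so the share of called genes is no result about the pathway. The malic enzymes me1 and me3 passed the filter through the knockdown group alone, since their control means were below 1 FPKM. The 2 groups of libraries did not overlap in any tested gene of the set except pgls, which held for 79.5% of all genes tested. In RNA of whole tissue, fewer cells of a type cannot be told apart from less RNA in each cell.

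**Figure D1:**
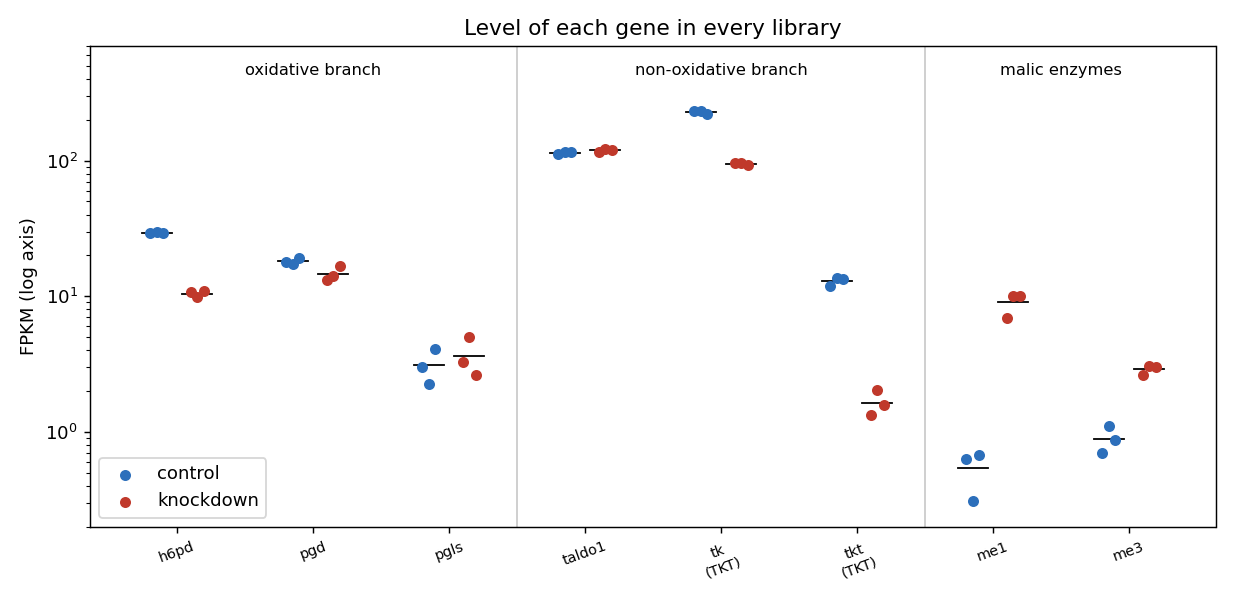
FPKM of the 8 tested genes (log axis) in each of 3 control (blue) and 3 knockdown (red) libraries, where each point is a library and each short line the mean of a group. The largest distances between the groups are those of tkt, which has 12.0 to 13.6 FPKM in the control and 1.33 to 2.03 in the knockdown libraries, and of me1, which moves the other way.

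The gene h6pd encodes the GDH/6PGL bifunctional enzyme, which carries out the first steps of the pathway inside the endoplasmic reticulum and feeds NADPH to reductases there. It had 10.7, 9.85 and 10.9 FPKM in knockdown libraries 1, 2 and 3 against 29.1, 30.0 and 29.2 FPKM in the controls. No library came near the other group, and the fall was 2.83-fold (log2 fold change -1.50, SE 0.05, edgeR adjusted p = 1.69e-18). Its share of the summed FPKM of h6pd, pgd and pgls was 58.2% ± 2.3 in the controls and 36.5% ± 2.7 in the knockdown (SD, n = 3 each).

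For the other oxidative genes the differences were small. The gene pgd encodes 6-phosphogluconate dehydrogenase, which makes NADPH and ribulose 5-phosphate in the cytosol. It had 13.1, 14.0 and 16.7 FPKM in the knockdown and 17.8, 17.3 and 18.98 in the controls. The highest knockdown library almost reached the lowest control library, and the fall was 1.24-fold (log2 fold change -0.31, SE 0.10, adjusted p = 0.00566). The step before it is that of 6-phosphogluconolactonase, pgls, which opens the lactone ring. It had 3.25, 5.04 and 2.65 FPKM against 3.03, 2.24 and 4.09, and 39 to 82 reads in a library. The groups overlapped and the difference did not pass (log2 fold change 0.21, SE 0.31, adjusted p = 0.543). Without knockdown library 2, the highest of its group, the log2 fold change was -0.10.

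**Figure D2:**
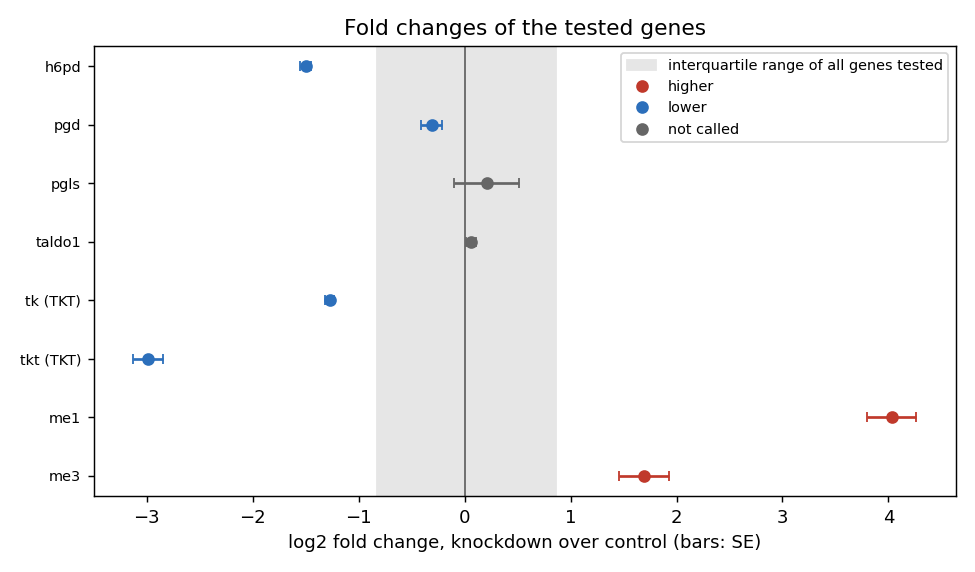
Log2 fold change, knockdown over control, of the 8 tested genes with its standard error from edgeR (bars), coloured by call, over the interquartile range of all genes tested (grey, -0.83 to 0.86). The genes pgd, pgls and taldo1 lie inside that range, and tkt (-2.99) and me1 (4.03) lie farthest from 0.

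Transketolase, which needs thiamine and moves short carbon units between sugar phosphates, was lower in both copies that were tested. The main copy, tk, had 95.7, 96.1 and 92.9 FPKM in the knockdown against control levels of 233, 231 and 219.6. The fall of 2.42-fold was uniform over the libraries (log2 fold change -1.27, SE 0.04, adjusted p = 2.51e-19). In the controls tk was the most abundant transcript of the set per length, above taldo1, and in the knockdown it ranked below taldo1. The minor copy, tkt, had 1.33, 2.03 and 1.57 FPKM against 12.0, 13.6 and 13.5. At 7.94-fold it showed the largest fall of the set (log2 fold change -2.99, SE 0.14, adjusted p = 1.02e-15). Of all genes tested, 2.42% had a lower log2 fold change than tkt.

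The minor copy was also a smaller part of all transketolase. The copy tkt made up 4.89%, 5.55% and 5.77% of the summed FPKM of the transketolase copies in the controls and 1.37%, 2.07% and 1.67% in the knockdown. The log2 ratio of tkt to tk was -4.13 ± 0.13 in the control and -5.87 ± 0.31 in the knockdown libraries (SD, n = 3 each; exact permutation test, 2-sided, p = 0.1). That p is the smallest that 3 against 3 libraries allow, and 3 such ratios were compared. A further copy, LOC100691863, was below the filter and not tested. Its reads were 3, 7 and 0 in the knockdown libraries and 1, 1 and 2 in those of the control, a ratio of 2.81 per library total with a 95% Clopper-Pearson interval of 0.811 to 12.3, which covers counting error only. How similar the copies are in sequence was not analysed here, and reads shared between near-identical stretches could have been split among them in counting.

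Transaldolase, taldo1, the other enzyme of the non-oxidative branch, stayed close to its control level. It had 116, 122 and 120 FPKM in the knockdown against 111, 115 and 115 in the controls. The groups did not overlap, yet the difference was small and did not pass (log2 fold change 0.06, SE 0.05, adjusted p = 0.257). The call depends on the filter. With a minimum mean of 5 FPKM the gene passed as higher (log2 fold change 0.12, edgeR adjusted p = 0.0189). With no filter on low values its sign turned (log2 fold change -0.037, edgeR adjusted p = 0.582). All genes shared with the main test shifted too, by a median of 0.058 in the first setting and -0.10 in the second. As transketolase fell, taldo1 went from 32.1% ± 0.897 to 55.3% ± 0.752 of the summed FPKM of the non-oxidative genes. The log2 ratio of taldo1 to tk rose from -0.999 ± 0.07 to 0.33 ± 0.05 (SD, n = 3 each; exact permutation test, 2-sided, p = 0.1, the smallest possible).

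**Figure D3:**
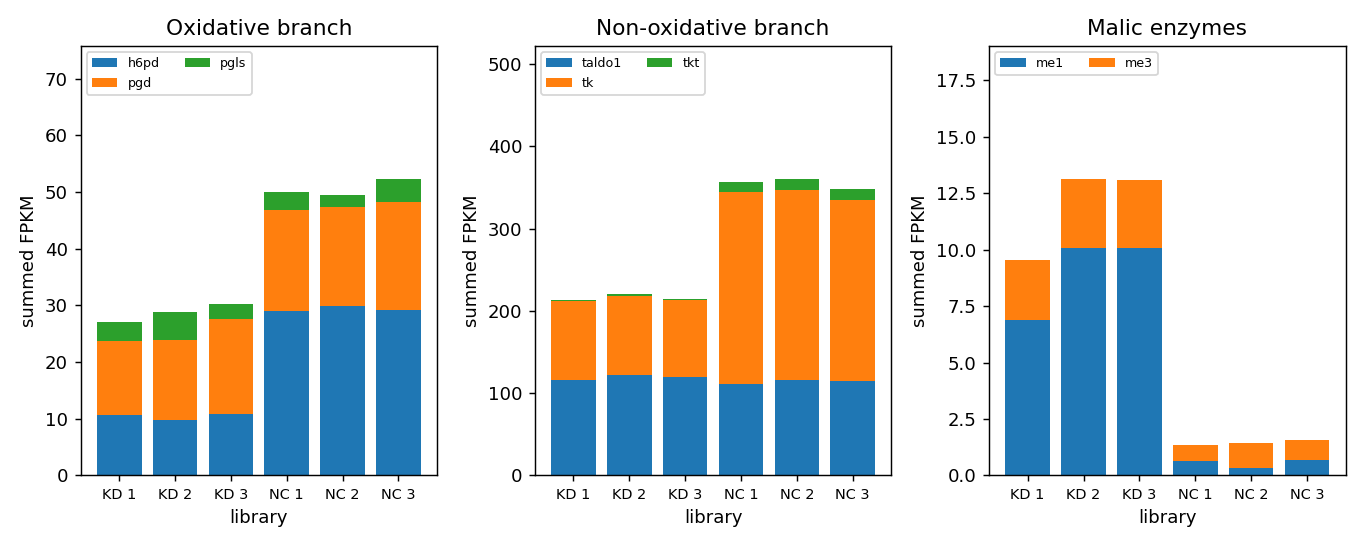
Summed FPKM of the tested genes described from each branch in every library (KD, knockdown; NC, negative control), stacked by gene, with axes from 0 and a different scale in each panel. Non-oxidative sums, with the unplotted LOC100691863 (at most 0.0701 FPKM), are 213 to 220.01 FPKM in knockdown and 348 to 360.1 in control libraries. The taldo1 part has about the same height in all 6.

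The malic enzymes went the other way. Cytosolic NADP-dependent malic enzyme, me1, is known in vertebrate liver as a supplier of NADPH for lipid synthesis. It had 6.9, 10.1 and 10.1 FPKM in the knockdown against 0.628, 0.311 and 0.678 in the controls. Knockdown library 1 was the lowest of its group and still far above the highest control library. The rise was 16.3-fold (log2 fold change 4.03, SE 0.23, adjusted p = 4.73e-14), and it rests on 24, 11 and 27 control reads. Leaving out any single library gave values between 3.76 and 4.22. Among all genes tested, 3.25% changed as much in either direction.

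The mitochondrial form, me3, had 2.64, 3.06 and 3.0 FPKM in the knockdown against 0.702, 1.11 and 0.873 in the controls. All knockdown libraries lay above all controls, and the rise was 3.23-fold (log2 fold change 1.69, SE 0.23, adjusted p = 4.35e-07). In the controls me3 was the larger part, with 52.8%, 78.0% and 56.3% of the summed FPKM of both malic enzymes. In the knockdown me1 took that place, with 72.3%, 76.7% and 77.1%. The NAD-dependent mitochondrial malic enzyme me2, which makes NADH rather than NADPH, did not pass (log2 fold change -0.06, SE 0.21, adjusted p = 0.793).

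Even after their rise, the malic enzymes had a smaller summed level than the genes described from either branch. The oxidative genes h6pd, pgd and pgls summed to 28.7 ± 1.58 FPKM after the knockdown, against 50.6 ± 1.48 in the controls, a ratio of 0.568. Most of this difference was that of h6pd, whose enzyme works inside the endoplasmic reticulum. That gene fell 2.83-fold, against 1.24-fold for the cytosolic pgd, and pgls did not pass. The oxidative sum also leaves out an enzyme of the pathway that is not reported here. The non-oxidative genes summed to 216 ± 3.57 against 355 ± 6.1 FPKM, a ratio of 0.609. The malic enzymes summed to 11.9 ± 2.06 against 1.43 ± 0.112 FPKM, a ratio of 8.32 (SD, n = 3 each). No p is given for these sums, since their members were chosen. CPM takes no account of length, so long transcripts such as h6pd weigh more in it than in FPKM. With CPM in place of FPKM, the oxidative ratio was 0.431 and the non-oxidative ratio 0.530. The lower sums stand beside the lower exocrine pancreas and erythrocyte markers. The higher malic enzymes stand beside the higher sums of the macrophage and neutrophil, adipocyte, lymphocyte, endothelial and stellate, biliary and skeletal muscle lists. Most of the biliary sum was 2 keratin genes, LOC100702817 (548 against 252 FPKM) and LOC100692632 (317 against 222). The biliary gene epcam had 23.2 against 2.25 FPKM. The part of those cells in the differences was not tested. Leaving the pancreas list out before scaling moved the 8 log2 fold changes by at most 0.000806. This concerns the scaling alone and cannot tell how much of these transcripts came from pancreas cells.

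**Figure D4:**
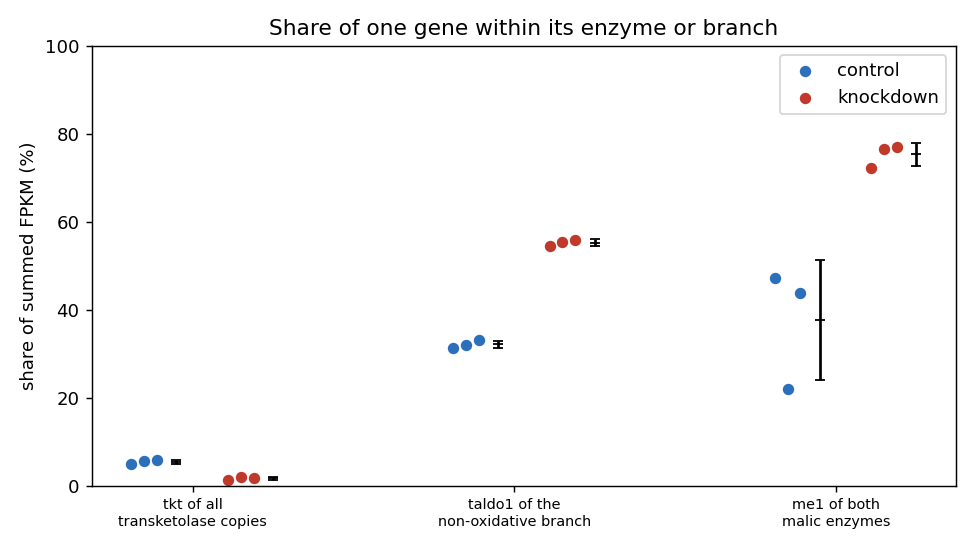
Share of tkt, taldo1 and me1 in the summed FPKM of their enzyme or branch, in percent, in each control (blue) and knockdown (red) library, with the mean and SD of 3 libraries (black). The share of me1 spreads widest in the controls (21.95% to 47.2%), where each library holds 11 to 27 of its reads.

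By position, 3 of the 9 genes lie on linkage group LG20, and these 3 were all lower. They are tk (LG20, 18113277 to 18121028, minus strand), pgd (22182535 to 22188000, plus) and tkt (24714748 to 24726885, minus), in coordinates of the file, equal to those of the O_niloticus_UMD_NMBU assembly. The closest neighbours among them are 2526748 bases apart, so they do not form a cluster of adjacent genes. The linkage group holds 4.93% of all genes tested, of which 41.2% were lower and 41.6% higher, close to the values over all genes. The remaining genes are h6pd (LG5, 17315063 to 17323821, plus strand), the barely read transketolase copy LOC100691863 (LG5, 20566429 to 20581442, minus), taldo1 (LG1, 10641271 to 10650522, plus), pgls (LG4, 23210448 to 23213550, plus), me1 (LG11, 14567488 to 14646074, plus) and me3 (LG16, 20787225 to 20800577, minus). Reads were counted over whole genes, and exons were not analysed here.

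Of 15 listed genes of side reactions 12 were tested, and 4 were higher and 4 lower (median log2 fold change -0.28, against -0.01 over all genes tested). Over all genes tested 39.1% were higher and 39.1% lower, so these counts are near the background. Ribose-5-phosphate isomerase, rpia, which joins the oxidative branch to ribose, had 3.47, 2.54 and 3.84 FPKM against 20.4, 14.8 and 17.8 in the controls (log2 fold change -2.43, SE 0.19, adjusted p = 1.51e-11). Its counterpart on the way to xylulose 5-phosphate, ribulose-phosphate 3-epimerase (LOC100692108), was higher, at 25.3 to 26.8 against 15.2 to 17.6 FPKM (log2 fold change 0.69, SE 0.10). This gene lies outside the rule for named genes and was chosen after its values were seen. Also higher were xylulose kinase, xylb, which feeds xylulose into the pathway (1.07), and a glucose-6-phosphate isomerase, LOC100712428 (1.05), which links it to glycolysis. Lower were prps1, which makes the ribose donor of nucleotide synthesis (-1.27, 12.0 FPKM in the controls), and dera, which breaks down deoxyribose phosphate (-1.02). The more abundant LOC100699971, described as ribose-phosphate pyrophosphokinase 2, did not pass. It had 36.8 ± 2.23 against 38.3 ± 2.77 FPKM (log2 fold change -0.06, SE 0.07, adjusted p = 0.386) and was named after its values were seen. The file's own annotation of the pentose phosphate pathway held 34 genes, of which 7 were chosen by the descriptions above. Of its 27 tested genes 10 were higher and 13 lower (median -0.27), beside 39.1% of all genes tested in each direction.

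Among other NADP-reducing enzymes the largest changes were in enzymes of folate-bound carbon. Of 15 listed genes 12 were tested, and 1 was higher and 5 lower (median log2 fold change -0.39), where 39.1% of all genes tested were higher and as many lower. These counts include the NAD kinases and the NAD-dependent malic enzyme me2, which do not reduce NADP. Cytosolic 10-formyltetrahydrofolate dehydrogenase, aldh1l1 (LOC100704523), makes NADPH as it oxidises formyl groups to carbon dioxide. It had 7.12, 4.49 and 5.64 FPKM in the knockdown against 239.8, 250.02 and 248 in the controls. The fall was 43.0-fold (adjusted p = 2.04e-26, log2 fold change -5.43, SE 0.08). In the controls its level exceeded that of tk, and in the knockdown it was below that of pgd. The trifunctional folate enzyme mthfd1, whose dehydrogenase step also reduces NADP, fell from 51.6 ± 1.38 FPKM to 5.51 ± 0.928 (log2 fold change -3.24, SE 0.08), and the mitochondrial aldh1l2 fell too (-1.995, SE 0.14). A second cytosolic copy of the trifunctional enzyme, LOC102080606, did not pass (13.6 to 18.1 against 17.0 to 19.3 FPKM, adjusted p = 0.06). This copy was named after its values were seen.

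The mitochondrial NADP-dependent isocitrate dehydrogenase copies parted. Copy LOC100702411 had 9.92, 7.26 and 8.69 FPKM against 32.7, 32.9 and 33.7 (log2 fold change -1.95, SE 0.10), and copy LOC100707874, idh2, had 3.52, 8.45 and 6.57 against 2.62, 1.31 and 2.1 (log2 fold change 1.60, SE 0.28, adjusted p = 1.16e-05). The NAD kinases, which make NADP from NAD, did not pass in any of their 3 tested genes (log2 fold changes -0.07 to 0.06).

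Acetyl-CoA supply and fatty acid synthesis, a main use of this NADPH, held 10 tested of 13 listed genes, with 3 higher and 5 lower (median -0.40), near the 39.1% of all genes tested in each direction. ATP-citrate synthase, acly, which makes cytosolic acetyl-CoA from citrate, fell from 43.1 ± 0.495 to 9.84 ± 0.436 FPKM (log2 fold change -2.14, SE 0.06). A cytosolic acetyl-CoA synthetase, acss2l (LOC100697261), which makes it from acetate, went up from 21.4 ± 1.04 FPKM to 98.5 ± 1.72 (log2 fold change 2.19, SE 0.06). Another cytosolic acetyl-CoA synthetase gene, acss2, named after its values were seen, was lower, at 2.12 ± 0.278 against 4.01 ± 0.61 FPKM (log2 fold change -0.93, SE 0.17, adjusted p = 1.8e-05). Cytosolic malate dehydrogenase, LOC100711262, which makes the malate that malic enzyme uses, fell from 509 ± 15.5 to 244.99 ± 6.89 FPKM (log2 fold change -1.06, SE 0.04). The carboxylase gene acacb was higher (1.14, SE 0.10). The other listed carboxylase gene, acaca (LOC100702823), named after its values were seen, did not pass. It had 4.67 ± 0.179 against 4.98 ± 0.32 FPKM (log2 fold change -0.10, SE 0.08, adjusted p = 0.247). Fatty acid synthase, fasn, which spends the NADPH, was called higher, at 4.96, 4.21 and 4.74 FPKM against 3.85, 3.13 and 3.48 (log2 fold change 0.40, SE 0.10, adjusted p = 0.00063). It was named after its values were seen.

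In the list of reductases, which was chosen with earlier results of these data known, more genes were lower than higher. Fatty acid synthase, fasn, which also spends NADPH and was called higher, is counted in the acetyl-CoA list. Of 31 listed reductase genes 18 were tested, and 12 were lower and 4 higher, where 39.1% of all genes tested fell in each direction (median log2 fold change -0.56). Lower were the thioredoxin reductases LOC100702976 (-1.96) and txnrd2 (-1.49, through the filter by its control level alone), which keep thioredoxin reduced, and porb (LOC100703354, -1.65), which passes electrons to cytochromes P450. So were biliverdin reductase blvra (-1.48), the cholesterol enzyme hmgcra (LOC100697646, -1.47) and tecr (-1.28), which completes each round of fatty acid elongation. A dihydrofolate reductase gene, LOC100703984, was higher (3.33, SE 0.35), at 1.59 to 2.37 FPKM against 0.184 to 0.207, and passed the filter through the knockdown group alone. Glutathione reductase, gsr, named after its values were seen, had 8.06, 9.74 and 8.88 FPKM against 13.2, 13.0 and 13.9 (log2 fold change -0.60, SE 0.10, adjusted p = 4.05e-06). LOC100690079, described as NAD(P)H dehydrogenase [quinone] 1 and also named after its values were seen, was higher. It had 34.7 ± 3.39 against 21.1 ± 1.11 FPKM (log2 fold change 0.71, SE 0.09).

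Of 14 listed regulators 13 were tested, and 8 were higher and 3 lower (median 0.27), beside 39.1% of all genes tested in each direction. With any single library left out, 6 or 7 were higher. With no filter on low values 4 were higher. The list also held slc37a4 (called higher, 0.50) and LOC100707951 (not tested), both described as glucose-6-phosphate exchanger SLC37A4, a transporter and not a regulator. Both were named after their values were seen. Higher were thrsp (LOC100708276, described in the file as mid1-interacting protein 1-B, 2.15), which passed the filter through the knockdown group alone, mlxipl (LOC102080620, 1.22), the carbohydrate-responsive activator of lipogenic genes, and bach1b (LOC100699573, 1.07), a repressor of antioxidant genes. The partner of mlxipl on DNA, mlx, was lower (-1.20, SE 0.16). The gene nfe2l2, which encodes an activator known in mammals to raise transcription of pentose phosphate and malic enzyme genes, was also lower. It had 36.2, 35.3 and 39.7 FPKM against 62.1, 66.0 and 65.0 (log2 fold change -0.80, SE 0.06, adjusted p = 2.11e-12) and was named after its values were seen. The 2 listed genes described as kelch-like ECH-associated protein 1 parted, LOC100710656 lower (-0.43, SE 0.07) and keap1 higher (0.21, SE 0.06). They too were named after their values were seen.

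**Figure D5:**
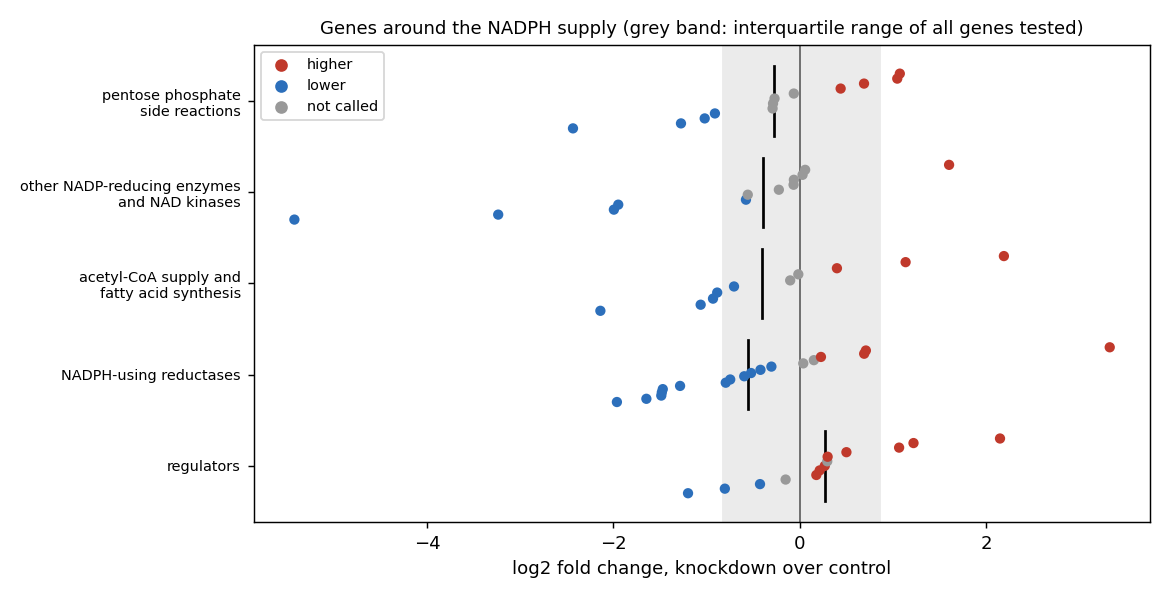
Log2 fold change, knockdown over control, of each tested gene in 5 lists around the NADPH supply, coloured by call, with the median of a list as a black line and the interquartile range of all genes tested as a grey band. The lowest point is aldh1l1 at -5.43, and the reductases lie mostly left of 0, with a median of -0.56.

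Some genes outside the pathway came near tkt and me1 over the 6 libraries, on a scale that compresses low levels. Likeness was the root mean square difference of log2(FPKM + 1), centred for each gene, and is a description, since most genes of these libraries differ between the groups. Closest to tkt were the nuclease gene LOC100700034 (deoxyribonuclease-2-beta, 0.0391), slc35b1 (0.0759) and arfgap2 (0.0788), where the median over all genes tested was 1.22. Closest to me1 were edn1, which encodes the vasoconstrictor endothelin-1 (0.125), LOC109195496, described as the kinase pim-2 (0.149), and the uncharacterised LOC109202433 (0.15), with a median of 1.37. The gene edn1 had 3.51, 6.34 and 6.62 FPKM in the knockdown against 0.14, 0 and 0.134 in the controls, and passed the filter through the knockdown group alone. Log2 fold changes were 5.79 for edn1, 3.43 for LOC109195496 and 2.75 for LOC109202433, against 4.03 for me1.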

How the data were processed

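The submitters' processing notes list cutadapt 1.9 and HISAT. For the version of HISAT, the counter and its strand setting, the sources used here give nothing. They do not name the build either, but 99.99% of matched genes had the start and end of the O_niloticus_UMD_NMBU assembly. Per the file headers, the deposited table holds read counts and FPKM of 29528 genes. The authors' FPKM equalled count over gene length and library total within a relative tolerance of 1e-05. The counts were tested with edgeR 4.0.16 (R 4.3.3, quasi-likelihood, TMM, no covariate) over 11431 genes whose mean FPKM reached 1, knockdown over control, and adjusted over all of them. The SE is the log2 fold change over the square root of F. One enzyme of the pathway is not reported here, and the oxidative sums leave it out. Members, lists and tests were chosen with earlier results of these data known. Lists were matched by symbol or start of the product description, which also took in scap and selenot. RefSeq symbols came from a table that held 29526 of the identifiers. Named were all members, genes of a list called with an absolute log2 fold change of at least 1 (up to 6 for each list and direction) and the 3 genes most like tkt and me1. Alternatives were DESeq2 1.42.0, limma 3.58.1 on log2(FPKM + 1 or 0.1), other scaling and filters, a replicate block and leaving out each library. The edgeR step was tested on simulated counts in which only a small part of the genes changed. Most genes of these data were called, so that check does not cover scaling or false calls here. The marker lists given above without sums had these summed levels in the knockdown against the control libraries. The adipocyte list had 130.4 to 146 against 56.8 to 61.3 FPKM, and the lymphocyte list 31.6 to 33.7 against 13.1 to 15.5. The largest adipocyte genes were LOC100692083, complement factor D (99.2 against 25.5 FPKM), adipor2 (22.8 against 28.8) and the leptin gene lepa (12.9 against 1.74). Endothelial and stellate genes had 99.4 to 105 against 52.0 to 56.3, and biliary genes 907 to 945 against 479.6 to 501. Skeletal muscle genes had 404 to 406 against 123 to 129.7. Nearly all of that was myoglobin (404 against 126 FPKM), with no read in 16 of the 24 genes.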

Additional observations from a re-analysis of the deposited data

How the results depend on the processing

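All 4 lower and both higher genes kept their call and direction wherever they were tested among the 15 alternatives. Over these, log2 fold changes ranged from -3.17 to -2.41 for tkt, 2.69 to 4.22 for me1, 1.05 to 1.86 for me3 and -0.42 to -0.24 for pgd (highest adjusted p 0.0343). The lowest values of me1 and me3 came from limma on log2(FPKM + 1), whose pseudocount compresses low levels. Signs turned only for genes that had not passed, pgls without knockdown replicate 2 (-0.10; 0.45 at most with another library left out) and taldo1 with no filter (-0.037), where the genes shared with the main test shifted by a median of -0.10. A minimum mean of 5 FPKM tested fewer genes. It called 2341 genes higher and 2321 lower, against 4471 and 4467. Of the set it left out me1, me3 and pgls and called 1 gene higher, taldo1, where shared genes shifted by a median of 0.058. It also called 0 higher and 3 lower other NADP-reducing genes, 1 higher and 3 lower acetyl-CoA genes, 2 higher reductases and 5 higher regulators. With no filter there were 2 higher NADP-reducing genes, 8 lower acetyl-CoA genes and 4 higher regulators. Summed CPM gave ratios of 0.431 (oxidative) and 0.530 (non-oxidative). Replicate numbers did not pair the libraries. Same-numbered libraries had correlations of deviations from -0.003 to 0.006 and not every library correlated best with its own number. With the replicate block 4409 genes were higher and 4447 lower. Levels below about 1 FPKM rest on few reads, as in the control libraries of me1.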

Other observations

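The 36 genes that flank the 9 genes, 2 on each side, were also examined. Of these 14 were tested, and 7 were higher and 5 lower, beside 39.1% of all genes tested in each direction. Beside h6pd lies the retinoid-binding protein 7 gene LOC100704699, which was higher (log2 fold change 3.81, SE 0.25), while h6pd was lower. This neighbour was chosen after its values were seen.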
